A study of Mus musculus with 10 samples.

Results

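Microglia are the resident immune cells of the brain. In the undisturbed brain they carry a set of surface receptors and a transcription factor, called homeostatic microglia genes. Other brain cells mostly lack these, though neural progenitors also make Sall1. Blood leukocytes share some of them, Selplg among others, so not every member is particular to microglia. This set is known to be turned down when microglia respond to injury, while phagocytic and inflammatory genes are turned up. The 9 genes described here are Tmem119, P2ry12, P2ry13, Cx3cr1, Selplg, Siglech, Gpr34, Slc2a5 and Sall1. They were taken by mouse symbol from a table of 55471 gene identifiers, in which each of the 9 symbols had 1 identifier.

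The values come from whole-brain RNA sequencing of 10 wild-type Swiss Webster mouse pups, given in the study's design text as neonatal day 5. In all of them a hypoxic-ischemic injury had been induced, in which the brain is deprived of oxygen and blood flow. After the injury 5 pups (libraries 6 to 10) received allopregnanolone, a progesterone metabolite and neurosteroid that enhances GABA-A receptor currents, and 5 pups (libraries 1 to 5) were left untreated. Uninjured brains were not analysed here, so each difference below is between 2 injured groups. Each pup gave 1 library. Expected counts summed to 18656836 to 34270723 per library, with the deepest among the treated ones. Libraries 2 and 10 carried almost no Y-linked transcripts, so each group held 1 pup without them. Libraries 1 to 3 carry another name prefix than the rest, and all are untreated.

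In bulk tissue a lower level can come from fewer cells of a type or from less RNA per cell, and these cannot be told apart. All 9 genes passed the minimum of 10 counts in 5 libraries. Their counts per library ranged from 20 to 132 for Slc2a5, the scarcest, and from 958 to 1870 for Cx3cr1. Levels are given as CPM, each count relative to its library's total after scaling by TMM, a method that evens out differences in library composition. Log2 fold changes are allopregnanolone over untreated.

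Of the 9 genes, 3 were higher with allopregnanolone in edgeR's quasi-likelihood test at an adjusted p of 0.05, namely Slc2a5, Tmem119 and Selplg. The same 3 were higher in DESeq2 and limma-trend. The number lower was 0 in all 3 tools. At an unadjusted p under 0.05 in edgeR, 4 of the 9 were higher and 0 lower, against 14.4% of all genes higher and 13.1% lower. Among all 17101 genes tested 6.61% were higher, 4.65% lower and 11.3% changed in either direction by edgeR. DESeq2 called 8.76% of genes higher and 6.6% lower, and limma-trend 6.63% higher and 4.53% lower. The split of all calls depended on the scaling, with 1131 genes higher and 795 lower under TMM, against 783 higher (4.58%) and 1451 lower (8.48%) with library totals alone. The median log2 fold change of the 9 genes was 0.06, that of all genes tested -0.00. The summed level of the 9 genes lay between 219 and 260 CPM in treated and between 216 and 228 CPM in untreated libraries. They are taken in turn by what they do.

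**Figure D1:**
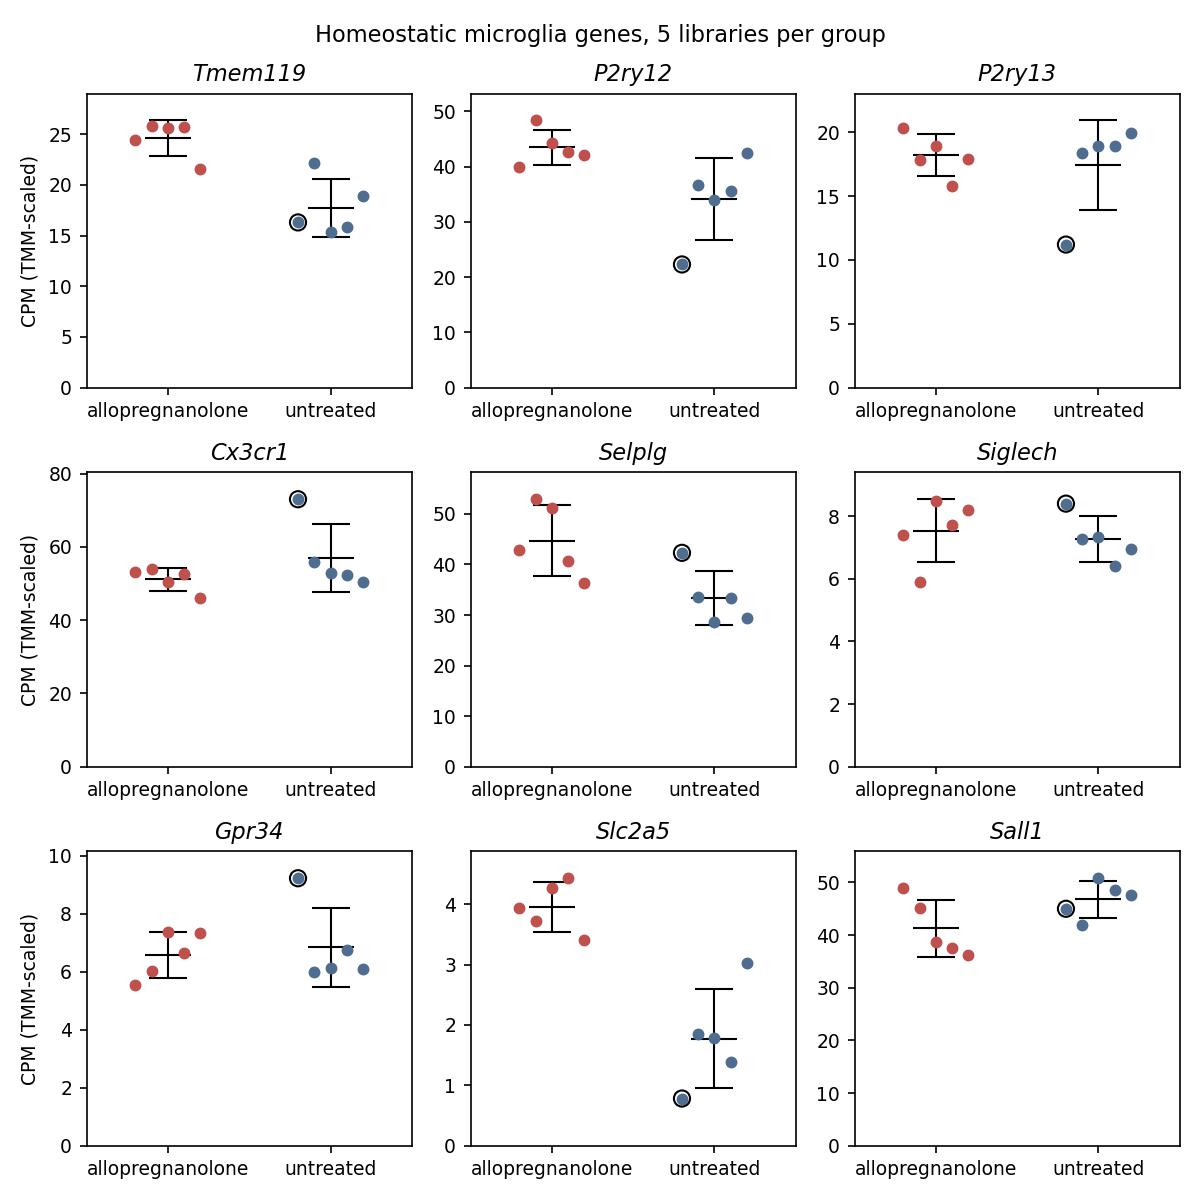
Levels of the 9 genes in CPM (vertical axes start at 0) in allopregnanolone (left, red) and untreated (right, blue) libraries. Points are single libraries, bars the mean ± SD of 5, and the black circle marks untreated library 1. Only Slc2a5 separates the groups without overlap.

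Upstream sequence is shown for the member that rose most and for 2 members that did not pass, as read from RefSeq on GRCm38.p6, which held an entry for 6 of the 9 genes. The printed stretch covers the 250 bases before the RefSeq start site, less any bases from the first annotated exon onwards. Capitals mark matches to GAGGAA or GGAAGT, 6-base parts of the motif of PU.1 (the product of Spi1, the factor that sets up the myeloid lineage), searched on both strands. The words share the letters GGAA, so 1 run of bases can hold both.
Slc2a5, chr4:150119094-150119235, plus strand: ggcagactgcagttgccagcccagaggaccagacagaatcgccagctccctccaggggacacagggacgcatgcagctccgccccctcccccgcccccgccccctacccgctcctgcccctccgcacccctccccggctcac
P2ry13, chr3:59210883-59211132, minus strand: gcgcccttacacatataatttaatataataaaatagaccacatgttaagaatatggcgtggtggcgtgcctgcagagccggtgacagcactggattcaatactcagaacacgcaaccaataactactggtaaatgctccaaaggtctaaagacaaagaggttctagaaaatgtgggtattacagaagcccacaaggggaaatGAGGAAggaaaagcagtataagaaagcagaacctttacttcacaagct
Siglech, chr7:55767934-55768177, plus strand: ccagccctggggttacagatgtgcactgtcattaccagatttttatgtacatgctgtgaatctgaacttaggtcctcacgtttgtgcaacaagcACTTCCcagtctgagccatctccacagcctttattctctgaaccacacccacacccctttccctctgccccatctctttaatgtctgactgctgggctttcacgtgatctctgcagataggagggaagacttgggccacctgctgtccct
The Slc2a5 stretch of 142 bases held no match, nor did the 250 bases it was taken from, and it was 73.2% G and C. The P2ry13 stretch held GAGGAA, 48 bases before the start site, and was 41.6% G and C. The Siglech stretch (50.8% G and C) held GGAAGT on the reverse strand. GAGGAA occurred in 23.3% and GGAAGT in 19.7% of the 32851 upstream windows of 250 bases in the table, and either word in 36.7% of them, so both a match and none are common. The Cx3cr1 window and 2 of the 3 Sall1 windows held none either, while the remaining Sall1 window held GGAAGT. Of the 6 genes with an entry, 4 had a match. The 250 bases before the P2ry12 start site also held GGAAGT, but they lie within an annotated Med12l exon and are not printed.

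Slc2a5 encodes the fructose transporter GLUT5, which in the brain is found on microglia (ENSMUSG00000028976, chromosome 4, 150119283 to 150144169 on GRCm38). It stood at 3.94, 3.72, 4.27, 4.43 and 3.40 CPM in treated libraries 6 to 10, against 0.781, 1.85, 1.78, 1.39 and 3.03 CPM in untreated libraries 1 to 5. All 5 treated libraries lay above every untreated one, with untreated library 5 close beneath them. Groups separated in this direction for 5.44% of all genes tested, and in either direction for 9.64%. The mean was 3.95 ± 0.415 CPM in treated and 1.77 ± 0.823 CPM in untreated libraries (SD, n = 5 each). The fitted rise was 2.24-fold, a log2 fold change of 1.17 (SE 0.26, adjusted p = 0.0141, edgeR). It passed in all 10 fits that left out 1 library.

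Tmem119 encodes a membrane protein used to tell resident microglia from other macrophages (ENSMUSG00000054675, chromosome 5, 113793729 to 113800516). It stood at 24.4, 25.8, 25.6, 25.7 and 21.6 CPM in treated libraries 6 to 10, against 16.3, 22.2, 15.4, 15.8 and 18.9 CPM in untreated libraries 1 to 5. The groups met at 1 point, where treated library 10 lay just under untreated library 2, the 2 libraries without Y-linked transcripts. Tmem119 rose 1.39-fold, by 0.48 on the log2 scale (SE 0.10, adjusted p = 0.00938, edgeR). It too passed whichever library was left out, and with the Y-linked level as a covariate (adjusted p = 0.0121).

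Selplg encodes the selectin ligand PSGL-1, an adhesion molecule that leukocytes share (ENSMUSG00000048163, chromosome 5, 113818536 to 113832644). It stood at 42.9, 52.9, 51.1, 40.6 and 36.3 CPM in treated libraries 6 to 10, against 42.3, 33.5, 28.7, 33.3 and 29.5 CPM in untreated libraries 1 to 5. The groups overlapped through untreated library 1, which was above treated libraries 9 and 10. The rise was 1.34-fold, a log2 fold change of 0.42 (SE 0.12, adjusted p = 0.0355, edgeR). Its call was lost when any 1 of libraries 2, 3, 4, 5, 7 or 8 was left out, with adjusted p values of 0.0598, 0.0943, 0.0811, 0.0601, 0.0871 and 0.0794. It was also lost with library totals alone as the scaling, at 0.36 (adjusted p = 0.0576). Leaving out untreated library 1 gave an adjusted p of 0.0139. Selplg and Tmem119 lie 18.0 kb apart on the same strand of chromosome 5, with 1 annotated gene, Gm19931, between them.

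All 3 calls were lost in the same pair of alternative fits, in which few genes of any kind passed. With libraries 1 to 3 left out, which leaves 2 untreated libraries, 0.444% of all genes were higher and 0.134% lower. The log2 fold changes were 0.83 (adjusted p = 0.192) for Slc2a5, 0.50 (0.0737) for Tmem119 and 0.51 (0.130) for Selplg in that fit. With the mean of 12 midbrain genes as a covariate 0.766% of all genes were higher and 0.403% lower, and the 3 log2 fold changes were 1.12 (adjusted p = 0.173), 0.35 (0.231) and 0.40 (0.292). The midbrain genes summed to 22.8 to 142 CPM in treated and 15.0 to 34.7 CPM in untreated libraries, 9 of the 12 being higher with allopregnanolone. Their part in the result was not tested beyond that fit.

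P2ry12 and P2ry13 encode receptors for ADP, the nucleotide that leaks from damaged cells and draws microglial processes towards them. Both genes lie on the minus strand of chromosome 3 inside Med12l, P2ry13 at 59207892 to 59210882 and P2ry12 at 59216272 to 59262871, 5.4 kb apart with no gene between them. Med12l runs on the opposite strand and shares 9 exonic bases with P2ry12 (0.4% of its exon length) and none with P2ry13. Whether counting used the strand is not given in the sources used here. P2ry12 stood at 40.0, 48.4, 44.2, 42.6 and 42.1 CPM in treated libraries 6 to 10, against 22.3, 36.7, 34.0, 35.6 and 42.5 CPM in untreated libraries 1 to 5. All treated libraries were above the untreated median, but untreated library 5 reached the treated range, and library 1 was far lower. The log2 fold change of 0.35 (SE 0.13) did not pass (adjusted p = 0.0939, edgeR). It passed with untreated library 5 left out, at 0.44 (adjusted p = 0.0319), and was 0.22 (adjusted p = 0.0974) without untreated library 1.

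P2ry13 stood at 20.3, 17.8, 18.9, 15.8 and 17.9 CPM in treated libraries 6 to 10, against 11.2, 18.4, 18.9, 18.9 and 19.9 CPM in untreated libraries 1 to 5. Untreated library 1 was the lowest of all 10. The other 4 untreated libraries lay inside the treated range of 15.8 to 20.3 CPM and above treated libraries 7, 9 and 10. With all libraries the fold change on the log2 scale was 0.06 (SE 0.13, adjusted p = 0.809, edgeR), and without untreated library 1 it was -0.07 (adjusted p = 0.655). The ratio of P2ry12 to P2ry13 was 1.97 to 2.72 in treated and 1.80 to 2.14 in untreated libraries.

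Gpr34, the receptor for lysophosphatidylserine, belongs to the same family and lies on chromosome X (13632089 to 13640858) inside Cask, on the opposite strand and with no shared exon. It stood at 5.55, 6.02, 7.35, 6.65 and 7.33 CPM in treated libraries 6 to 10, against 9.22, 5.99, 6.14, 6.75 and 6.10 CPM in untreated libraries 1 to 5. Untreated library 1 was the highest and the other 9 libraries mixed. On the log2 scale Gpr34 differed by -0.06 (SE 0.14, adjusted p = 0.823, edgeR), or by 0.07 (adjusted p = 0.782) without untreated library 1. Cask itself was at 105 ± 1.42 CPM in treated and 118 ± 3.15 CPM in untreated libraries (SD, n = 5 each, log2 fold change -0.17, adjusted p = 0.0196, edgeR). Among the 12 receptors of the wider P2Y family, these 3 included, 8 were tested and only P2ry6, a receptor for UDP that drives phagocytosis, passed. P2ry6 fell to 3.66 ± 0.452 CPM in treated libraries, against 7.32 ± 3.36 CPM in untreated libraries (SD, n = 5 each), 2.00-fold lower at an adjusted p of 0.0175 in edgeR. The neighbouring family member P2ry14 (log2 fold change 0.24, SE 0.19), the other ADP receptor P2ry1 (-0.16, SE 0.15) and P2ry10b (-0.53, SE 0.33) did not pass.

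Cx3cr1 encodes the receptor through which microglia sense the neuronal chemokine CX3CL1 (ENSMUSG00000052336, chromosome 9, 119901616 to 120069879). Its span overlaps several annotated genes. Only Gm33858, on the opposite strand, shares exonic bases with Cx3cr1 (78, or 1.7% of the Cx3cr1 exon length). Cx3cr1 stood at 53.2, 53.9, 50.3, 52.5 and 46.1 CPM in treated libraries 6 to 10, against 73.0, 56.0, 52.8, 52.3 and 50.3 CPM in untreated libraries 1 to 5. Untreated library 1 was the highest, and the groups otherwise overlapped. On the log2 scale Cx3cr1 differed by -0.15 (SE 0.09), which did not pass (adjusted p = 0.308, edgeR), and without untreated library 1 by -0.05 (adjusted p = 0.655). The ligand gene Cx3cl1 rose 1.22-fold, at 952 ± 85.8 CPM in treated and 779 ± 82.8 CPM in untreated libraries (SD, n = 5 each, adjusted p = 0.0331, edgeR). That call was lost without untreated library 1 (adjusted p = 0.0593, edgeR), although the fold change stayed at 1.22.

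Siglech encodes a lectin of the sialic-acid-binding family that signals through the adaptor encoded by Tyrobp (ENSMUSG00000051504, chromosome 7, 55768178 to 55778925). It stood at 7.40, 5.91, 8.49, 7.71 and 8.20 CPM in treated libraries 6 to 10, against 8.40, 7.28, 7.33, 6.42 and 6.94 CPM in untreated libraries 1 to 5. The groups overlapped throughout, with a log2 fold change of 0.05 (SE 0.12, adjusted p = 0.814, edgeR), or 0.10 (adjusted p = 0.647) without untreated library 1. Tyrobp itself fell 1.61-fold, at 7.11 ± 0.574 CPM in treated and 11.4 ± 3.64 CPM in untreated libraries (SD, n = 5 each, adjusted p = 0.0280, edgeR), a call that was lost without untreated library 1.

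Sall1 encodes a zinc finger transcription factor that maintains microglial identity and that neural progenitors of the developing brain also make (ENSMUSG00000031665, chromosome 8, 89027235 to 89044162). It stood at 48.9, 45.2, 38.7, 37.6 and 36.3 CPM in treated libraries 6 to 10, against 45.0, 41.9, 50.8, 48.6 and 47.7 CPM in untreated libraries 1 to 5. Treated libraries 8, 9 and 10 lay under every untreated library, while treated libraries 6 and 7 did not. On the log2 scale Sall1 differed by -0.18 (SE 0.08) and did not pass (adjusted p = 0.193, edgeR), and without treated library 6 it was -0.25 and passed (adjusted p = 0.0496). Of 9 neural progenitor genes Mki67 and Nes fell and none rose, with a median log2 fold change of -0.26, and their sum was 156 to 191 CPM in treated and 176 to 242 CPM in untreated libraries. Nes did not pass without untreated library 1 (adjusted p = 0.0989, edgeR). Treated library 6, the highest treated one for Sall1, was also the highest treated one in this sum, at 191 CPM. Treated library 7, the next highest treated one for Sall1 (45.2 CPM), had the lowest treated sum, at 156 CPM. Untreated library 1 had the highest sum of all (242 CPM), while its Sall1 level of 45.0 CPM was the next to lowest untreated one. The part of the neural progenitor genes in the level of Sall1 was not tested.

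Levels per kilobase of exon allow a rough comparison of genes. The length merges all annotated exons of a gene and can exceed that of the transcript in use, so the order depends on the annotation. On this scale P2ry12 was the most abundant of the 9 in treated brains at 17.1 ± 1.23 CPM per kb (SD, n = 5). Cx3cr1 (11.4 ± 0.701), Tmem119 (10.6 ± 0.771) and Selplg (10.5 ± 1.64 CPM per kb) followed, with ranges that overlapped each other. Sall1 (7.85 ± 1.03) and P2ry13 (7.18 ± 0.651 CPM per kb) came next, and each again overlapped the gene above it. Gpr34 (3.15 ± 0.381), Siglech (2.23 ± 0.297) and Slc2a5 (1.16 ± 0.122 CPM per kb) were apart from their neighbours in the order. In untreated brains P2ry12 (13.4 ± 2.92) and Cx3cr1 (12.6 ± 2.05 CPM per kb) overlapped. Sall1 (8.88 ± 0.656), Selplg (7.83 ± 1.26), Tmem119 (7.65 ± 1.22) and P2ry13 (6.90 ± 1.40 CPM per kb) formed the next overlapping run. This run lay below Cx3cr1, but P2ry12, at 8.74 to 16.7 CPM per kb, reached into the ranges of Sall1, Selplg and Tmem119. The order ended in the same 3 genes, with Slc2a5 at 0.519 ± 0.242 CPM per kb.

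The libraries differed from each other in which members were high. In untreated library 1 P2ry12, P2ry13 and Slc2a5 lay below all other untreated libraries, whereas Cx3cr1, Selplg, Siglech and Gpr34 lay above them. Relative to the untreated mean, on the log2 scale, Slc2a5 was at -1.18 and P2ry13 at -0.64 in that library, and Gpr34 was at 0.43 and Cx3cr1 at 0.36. In the same library 10 of 14 genes that microglia make in any state, and 15 of 18 genes of activated microglia, also lay above all other untreated libraries. How often library 1 lay outside the other untreated libraries over all genes tested was not counted. Whether these counts are particular to microglial genes was therefore not tested. Untreated library 5 stood at the other end for part of these members. It had the highest Slc2a5 (3.03 CPM), P2ry12 (42.5 CPM) and P2ry13 (19.9 CPM) of its group and the lowest Cx3cr1 (50.3 CPM). For Selplg, Siglech and Gpr34 it lay inside the range of the other untreated libraries. Its level of Clec7a, a receptor of activated microglia, was 0.312 CPM against 2.14 to 5.78 CPM in the other untreated libraries. Of the activated list Tyrobp and Trem2 were also lowest in library 5, whereas Ctsb and Lgals3 were not. The SD of P2ry12 was 3.14 CPM in treated and 7.42 CPM in untreated libraries, the latter including library 1 at 22.3 CPM. That of Slc2a5 was 0.415 CPM in treated and 0.823 CPM in untreated libraries. The treated SD was also the smaller one for Tmem119, P2ry13, Cx3cr1 and Gpr34. It was the larger one for Selplg (7.02 against 5.39 CPM), Sall1 (5.43 against 3.46 CPM) and Siglech (1.00 against 0.724 CPM).

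**Figure D2:**
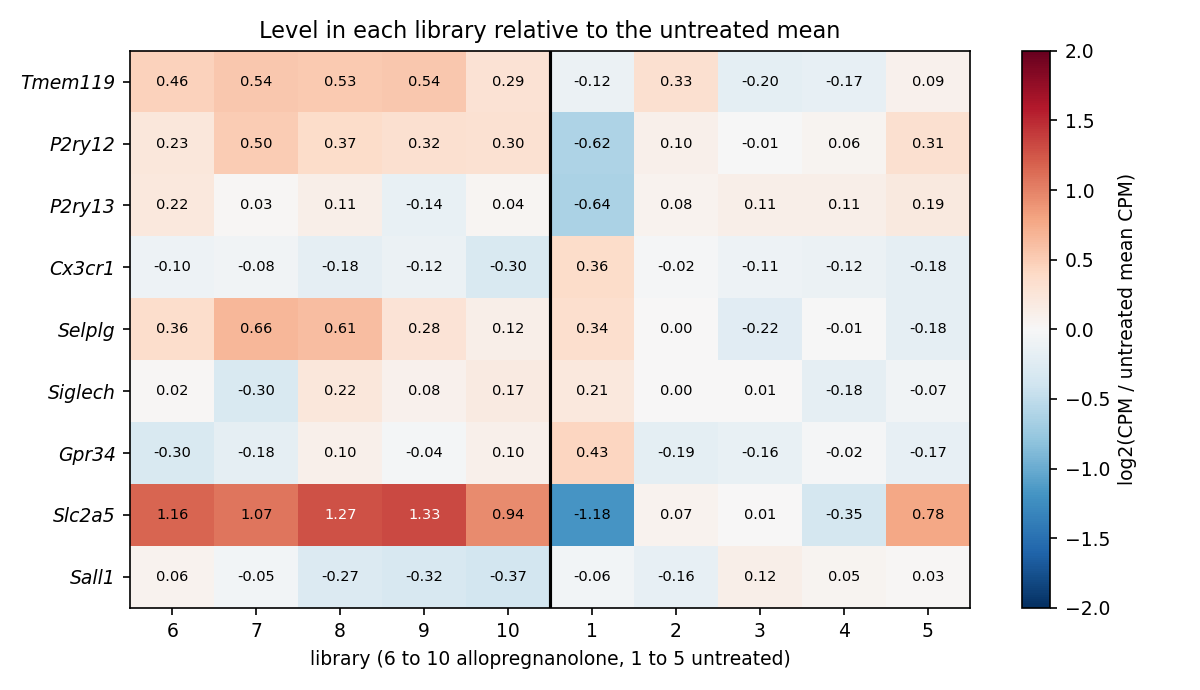
Level of each gene (rows) in each library (columns, allopregnanolone 6 to 10 left, untreated 1 to 5 right) as log2 of CPM over the untreated mean. Slc2a5 is between 0.94 and 1.33 in treated libraries, and untreated library 1 is at -1.18 for Slc2a5 and at 0.43 for Gpr34.

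The 14 genes of microglia in any state serve as a check that these cells were sampled, and all 14 passed the count minimum. Spi1, Ly86 and Ctss fell and none rose, all 14 log2 fold changes being below 0 with a median of -0.33. Spi1, which encodes PU.1, fell to 5.86 ± 0.851 CPM in treated libraries, against 10.8 ± 4.13 CPM in untreated libraries (SD, n = 5 each), 1.83-fold lower at an adjusted p of 0.0197 in edgeR. Ly86, a partner of a Toll-like receptor relative, was 1.81-fold lower and the lysosomal protease Ctss 1.69-fold lower, and Ptprc, the leukocyte phosphatase, stood at 1.53 ± 0.581 CPM in treated and 4.33 ± 2.84 CPM in untreated libraries (SD, n = 5 each, adjusted p = 0.0514, edgeR). Only Spi1 passed without untreated library 1, when the median was -0.23, 4.16% of all genes tested being higher and 3.0% lower in that fit. Summed, the 14 genes were at 294 ± 14.2 CPM in treated and 364 ± 79.0 CPM in untreated libraries (SD, n = 5 each), with untreated library 1 at 482 CPM and untreated library 5 at 282 CPM, inside the treated range of 273 to 309 CPM.

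Set against that sum, Tmem119 was at 7.54 to 9.47 CPM per 100 CPM of the 14 genes in treated libraries and at 3.38 to 6.73 in untreated ones. Selplg was at 12.7 to 19.4 in treated and 8.25 to 10.4 in untreated libraries, and Slc2a5 at 1.19 to 1.47 in treated and 0.162 to 1.07 in untreated libraries, on the same scale. For these 3 genes the groups did not overlap, and for the other 6 they did. Divided by the same sum, which was itself lower in every treated library than in 4 of the 5 untreated ones, 6.32% of all genes tested lay higher in every treated library than in any untreated one, and 6.59% separated in either direction. These ratios are given as a description, without a test. The ratio of Tmem119 to P2ry12, which needs no scaling of libraries, was 0.513 to 0.610 in treated and 0.443 to 0.732 in untreated libraries. Its log2 mean was -0.82 ± 0.11 in treated and -0.93 ± 0.33 in untreated libraries (SD, n = 5 each), a difference of 0.11 that did not pass a two-sided exact permutation test (p = 0.508, the smallest possible being 0.00794). With libraries 1 to 3 left out the difference was 0.35 (exact permutation p = 0.0476, the smallest that 5 against 2 libraries can give).

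**Figure D3:**
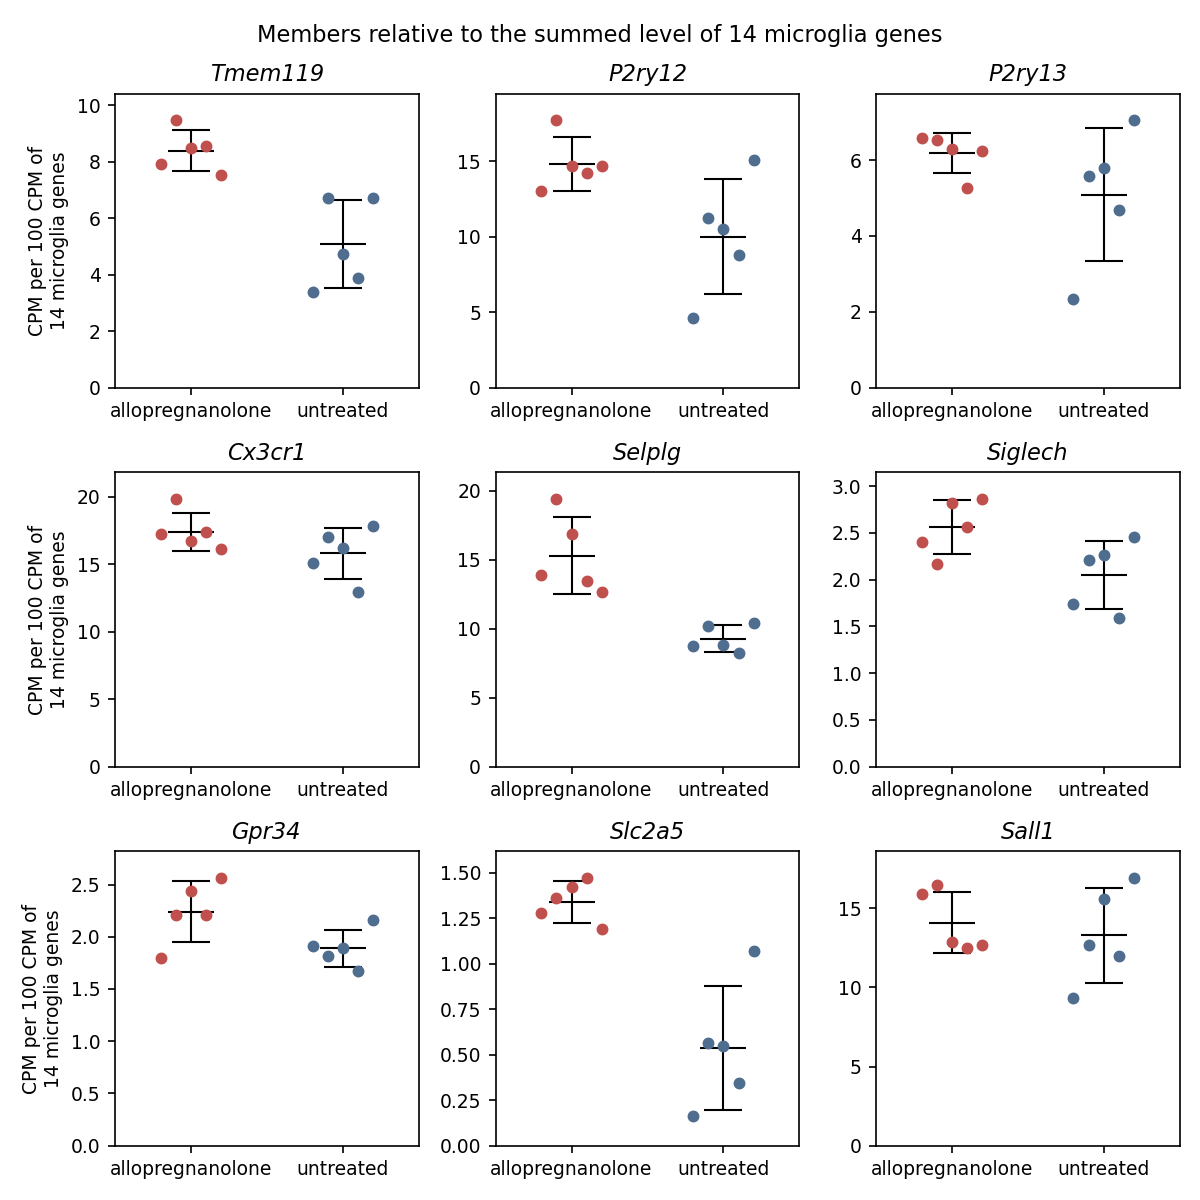
CPM of each of the 9 genes per 100 CPM of 14 genes that microglia make in any state (vertical axes start at 0), allopregnanolone left, untreated right. Points are single libraries, bars the mean ± SD of 5. Tmem119, Selplg and Slc2a5 separate the groups and the other 6 genes overlap, where 6.32% of all genes tested separate in the same direction on this scale.

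Other genes counted among the homeostatic ones went both ways. Of 18 genes 4 rose and 5 fell, with a median log2 fold change of -0.05. Mertk, through which phagocytes and astrocytes clear apoptotic material, rose 2.37-fold and Sparc, a matrix protein of many cell types, 1.46-fold. Cd33, a sialic-acid-binding inhibitory receptor, fell 2.26-fold, to 7.71 ± 0.851 CPM in treated against 17.4 ± 6.44 CPM in untreated libraries (SD, n = 5 each, adjusted p = 0.00333, edgeR). Lpcat2, a lysophospholipid acyltransferase, fell 1.57-fold. Without untreated library 1, 3 rose (Mertk, Sparc and Ltc4s) and 3 fell (P2ry6, Cd33 and Lpcat2).

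Among 16 tested ligands and signalling partners of the members, Cx3cl1 and Smad3 rose and Tyrobp fell, with a median log2 fold change of 0.04. Smad3, which carries the TGF-beta signal that microglia depend on, rose 1.32-fold (33.6 ± 5.54 CPM in treated and 25.5 ± 2.94 CPM in untreated libraries, SD, n = 5 each, adjusted p = 0.0315, edgeR). It was the 1 call of the 3 that held without untreated library 1. Itgb8, the integrin subunit that frees TGF-beta, had a log2 fold change of -0.15 (SE 0.06, adjusted p = 0.123, edgeR). Of 10 transcription factors of microglia Bhlhe41 rose 1.30-fold and Spi1 fell, while Cebpa (log2 fold change 0.51, SE 0.17) and Mef2a (-0.18, SE 0.06) did not pass.

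Of 16 tested genes of activated microglia Clec7a, Tyrobp and Lyz2 fell and Apoe, a lipid carrier also made by astrocytes, rose, with a median log2 fold change of -0.41. Clec7a was at 0.297 ± 0.185 CPM in treated and 2.56 ± 1.98 CPM in untreated libraries (SD, n = 5 each), 8.98-fold lower at an adjusted p of 0.00756 in edgeR, and 6.17-fold lower (0.0160) without untreated library 1. Lyz2, the macrophage lysozyme, was 4.58-fold lower, with untreated library 1 at 26.0 CPM, and 2.29-fold lower (adjusted p = 0.107, edgeR) without that library. Of these 4, Clec7a and Apoe passed without untreated library 1.

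**Figure D4:**
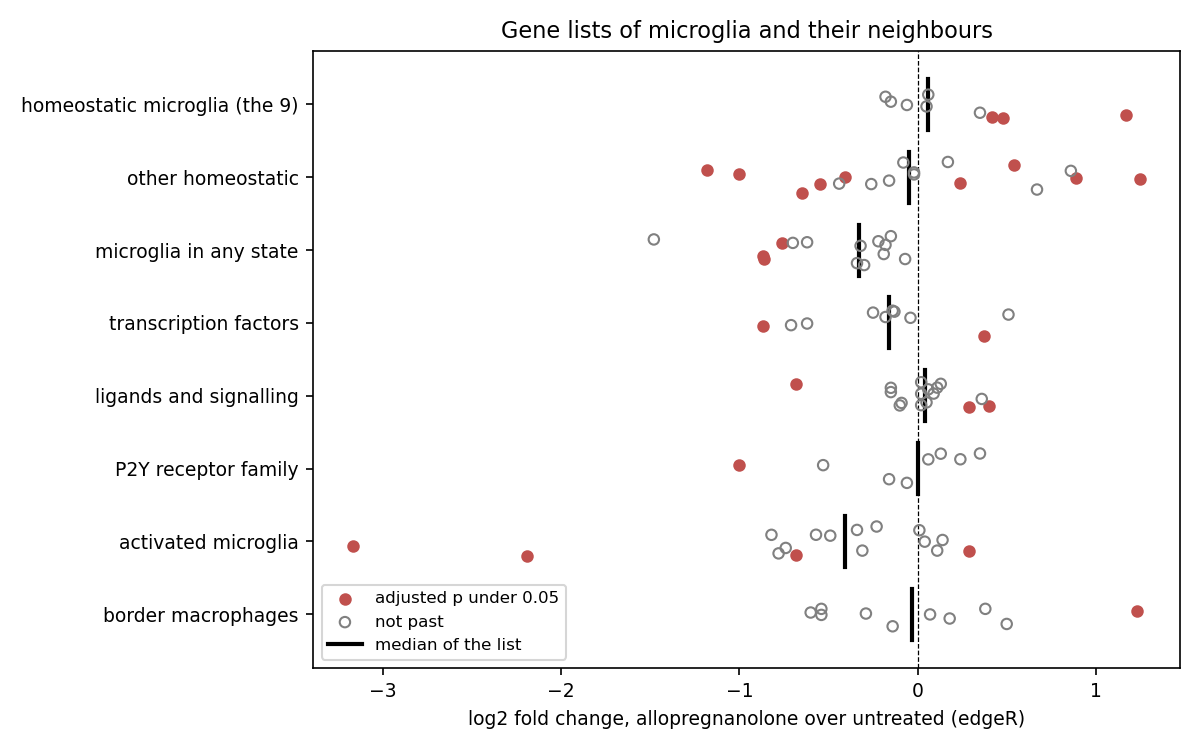
Log2 fold changes of the genes tested in 8 lists (horizontal axis, allopregnanolone over untreated). Filled points passed an adjusted p of 0.05 and black bars are list medians. The 9 genes have a median of 0.06 with 3 past the threshold, and the 14 genes of microglia in any state a median of -0.33.

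Macrophages outside the brain tissue proper and blood leukocytes make some of the same transcripts. Of 10 genes of border macrophages, which line vessels and meninges, Cd163 rose and none fell, and the list summed to 62.0 to 94.5 CPM in treated and 69.3 to 78.7 CPM in untreated libraries. Cd163 was at 1.75 ± 0.866 CPM in treated and 0.760 ± 0.146 CPM in untreated libraries (SD, n = 5 each, adjusted p = 0.0495, edgeR), and it did not pass without untreated library 1. Cbr2 (log2 fold change 0.50, SE 0.25), Pf4 (-0.54, SE 0.30) and Lyve1 (0.38, SE 0.23) did not pass. Of 13 genes of blood leukocytes 1 passed the count minimum, Ly6c2, and the list summed to 1.98 to 9.37 CPM in treated and 1.56 to 9.01 CPM in untreated libraries. Their part in the level of Selplg or of any other member was not tested. Myelin genes, which are not made by microglia, rose in 10 of 10 cases, with a sum of 6005 to 8113 CPM in treated and 2027 to 3905 CPM in untreated libraries.

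The genes whose pattern over the 10 libraries was most like the mean of the 9, after the group means had been removed, were Med12l, Ubxn6, Gspt2, Ttbk2 (Pearson r = 0.93 each), Btbd17 (0.91) and Slc35b4 (0.90), among 13931 genes with a mean of at least 2 CPM. These values describe 10 libraries that share their scaling and carry no test. The members did not follow their own mean alike, with r from -0.49 for Gpr34 to 0.76 for Slc2a5. That mean includes the member it is compared with, so part of each r is built in. Med12l, the gene around P2ry12 and P2ry13, had a log2 fold change of 0.09 (SE 0.06, adjusted p = 0.365, edgeR).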

How the data were processed

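Per the labels' protocols, whole-brain RNA (RNeasy Mini Plus, 1 µg for each of 10 brains) was made into NEBNext Ultra II Directional libraries. Partek and mm10 stand in the submitters' processing notes. For the aligner, counter, annotation and strand setting: not given in the sources used here. The deposited table holds expected counts for 55471 Ensembl identifiers. Its name calls them normalized, but 86.8% to 87.6% of the values above 0 were whole (tolerance 1e-06) and totals differed. They were rounded and tested as counts. Symbols and coordinates came from GENCODE M21 (GRCm38), which held 55230 identifiers, including all 9 genes.

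Genes with at least 10 counts in at least 5 libraries (17101) were compared with edgeR 4.0.16 in R 4.3.3 (quasi-likelihood test, TMM scaling, factors 0.953 to 1.04, no covariate, two-sided). The threshold was an adjusted p of 0.05 (Benjamini-Hochberg over all genes kept). Standard errors are the fold change over the square root of F. An exact permutation test (252 assignments) compared the Tmem119 to P2ry12 ratio. On simulated data with 200 changed genes the edgeR step, run on 17101 genes, recovered 68% of the 1.5-fold changes and 94% of the 2-fold ones, with 5.26% of its calls on unchanged genes.

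The 20 alternatives to the gene test were 3 other scalings, 2 other count filters, DESeq2 1.42.0, limma-trend 3.58.1 (prior count 1), each library left out, the 3 libraries with another name prefix left out, and Y-linked and midbrain covariates. Members and lists were chosen with earlier results of these data known. Named genes outside the 9 are up to 4 per list with the smallest p, and the 6 genes most like the members' mean. Genes that overlap members or lie between them are named too. Further genes of the other homeostatic list (Ltc4s, Crybb1, Fcrls and those beside them under other observations) and of the activated list were named after their values were seen. Labels do not say whether pups shared litters.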

Additional observations from a re-analysis of the deposited data

Results flagged for a closer look

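In 5-library groups, a library was set apart when its gap to the nearest other library exceeded 0.71 of the range of the group. Chance alone sets apart about 1 in 20 groups, and 10 of 140 were. Of these, 5 were untreated library 1. It was low for P2ry13, at 11.2 CPM against 18.4 to 19.9 CPM in the other untreated libraries. It was high for Cx3cr1 (73.0 against 50.3 to 56.0 CPM), Gpr34 (9.22 against 5.99 to 6.75 CPM), P2ry6 (13.2 against 5.03 to 6.51 CPM) and Mki67 (38.5 against 15.9 to 21.2 CPM).

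Untreated library 5 was low for Cbr2, at 0.801 against 1.27 to 1.39 CPM. The blood leukocyte genes summed to 9.37 CPM in treated library 6, against 1.98 to 2.73 CPM in the other treated libraries, and to 9.01 CPM in untreated library 4, against 1.56 to 3.44 CPM in the other untreated libraries. The neural progenitor genes summed to 191 CPM in treated library 6, against 156 to 162 CPM in the other treated libraries. P2ry13 per 100 CPM of the 14 microglia genes was 5.26 in treated library 9, against 6.25 to 6.58 in the other treated libraries.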

How the results depend on the processing

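No paired analysis was possible because the pups carry their own numbers and the groups share none. Tmem119 passed in 18 of 20 alternatives, Slc2a5 in 17 of 19 (it was below a minimum of 100 counts) and Selplg in 11 of 20, all with log2 fold changes above 0. With libraries 1 to 3 left out 76 genes were higher and 23 lower, and with the midbrain covariate 131 were higher and 69 lower, and 0 members were higher in either fit. With library totals alone 1451 genes were lower, Selplg no longer passed (2 members higher), and Siglech turned to -0.0059. With 1 library left out 647 to 1357 genes were higher and 437 to 984 lower, with 2 to 3 members higher and 0 to 1 lower, and P2ry13 at -0.07 to 0.11 and Gpr34 at -0.10 to 0.07. The fewest came without untreated libraries 3 (647 and 475) and 4 (649 and 437), then without untreated library 1 (712 and 513). The causes were not tested. P2ry13 reversed to -0.07 without library 1, to -0.10 without libraries 1 to 3 and to -0.0017 with the midbrain covariate, and Gpr34 to 0.07, 0.03 and 0.21. The ratio of Tmem119 to P2ry12 differed by 0.05 to 0.23 with 1 library left out, and by 0.35 without libraries 1 to 3. Without untreated library 1, a choice made after seeing the data, genes in lists that fell numbered 1 (microglia in any state), 3 (other homeostatic), 0 (ligands and signalling) and 1 (activated), and those that rose 1 (ligands and signalling) and 0 (border macrophages). Slc2a5, at 20 to 132 counts per library, has the largest counting error of the 9.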

Other observations

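A pair of further microglial markers, singled out after their values were seen, were, like Slc2a5, lowest in untreated library 1. They come from the list of 18 other homeostatic genes. Within the untreated group, Ltc4s, which passed, and Nav3 of that list were also lowest in library 1. Cd33, P2ry6, Tgfbr1, Il10ra, Adora3, Slco2b1 and Golm1 of the same list were instead highest in it. Crybb1, a crystallin gene of young microglia, stood at 5.76, 4.11, 4.32, 3.46 and 5.51 CPM in treated libraries 6 to 10, against 0.391, 2.76, 2.10, 1.34 and 6.32 CPM in untreated libraries 1 to 5. Fcrls, an Fc receptor-like gene, stood at 6.11, 7.09, 7.90, 5.63 and 6.04 CPM in treated libraries 6 to 10, against 2.15, 4.05, 3.60, 3.51 and 7.30 CPM in untreated libraries 1 to 5. Unlike in Slc2a5, where untreated library 5 lay under every treated library, it was the highest of all 10 for Crybb1 and inside the treated range for Fcrls. Neither passed, with log2 fold changes of 0.86 (SE 0.46, adjusted p = 0.247, edgeR) and 0.67 (SE 0.24, adjusted p = 0.0917, edgeR).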
